A study of Mus musculus with 2 samples.

Results

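The 38 genes described here encode enzymes that make and recycle nucleotides, together with the folate-bound one-carbon enzymes that feed them. They were selected by gene name, and all 38 had a row among the 34745 genes of the expression tables. Of these, 14 act on purines, 7 on pyrimidines, 12 on the supply of deoxynucleotides and 5 on folate. RNA came from BM LSKs, the lineage-negative, Sca-1+, c-Kit+ fraction of bone marrow that holds stem and progenitor cells. The donors were Scl/tTA-BA mice on the B6 (C57BL/6) background. In these double transgenic mice the tetracycline transactivator tTA is driven by Scl regulatory sequences in hematopoietic stem and progenitor cells, and tTA switches on BA, the BCR-ABL fusion oncogene of chronic myeloid leukemia, when doxycycline is absent. Both groups carried both transgenes. The week-0 group was kept on doxycycline, with BA uninduced, and the week-3 group had been off doxycycline for 3 weeks, with BA induced. The ages of the mice were not given in the sources used here. Each group was 1 library made from the pooled LSKs of 3 mice, so the spread between mice is not known, no test was possible, and every difference below is a difference between these 2 libraries. Which share of the pooled LSKs expressed BA was not measured here, and in such bulk samples fewer cells of a type and less RNA per cell cannot be told apart.

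Reads assigned to genes numbered 6356164 at week-0 and 3886695 at week-3. Levels are FPKM (fragments per kilobase of gene model, scaled to the library total) with gene lengths the authors used. Changes are the FPKM ratio of week-3 to week-0, or its log2, with an exact 95% interval from the read counts. That interval covers counting error only and not the spread between mice. A gene is called upregulated or downregulated below when its ratio was at least 1.5 or at most 0.67 and its interval excluded a ratio of 1, and a stricter pair of limits of 2 and 0.5 is named where used. Genes with fewer than 20 reads over both libraries were not called, which left 37 of the 38 members and 12192 of all genes.

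Known biology gives these enzymes distinct places. Purine rings are built stepwise on a ribose phosphate made by PRPP synthetases, pyrimidine rings are closed first and joined to ribose phosphate later, and salvage enzymes return free bases and nucleosides to the nucleotide pool. Ribonucleotide reductase turns ribonucleotides into the deoxynucleotides that DNA synthesis consumes. Folate carries the one-carbon units, mostly from serine, that enter the purine ring and the methyl group of thymidylate. Dividing hematopoietic progenitors use all of these routes.

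As a group the genes were more abundant at week-3. The summed level was 1215 FPKM at week-0 and 1772 FPKM at week-3, a ratio of 1.46, and the share of all reads on genes went from 0.412% to 0.566%. At the limits of 1.5 and 0.67, 17 of the 37 members were upregulated and 2 were downregulated, against 21.4% and 21.6% of all genes. At the limits of 2 and 0.5, 5 members were upregulated, namely Rrm2, Ppat, Pfas, Aprt and Gart, and 2 were downregulated, Samhd1 and Rrm2b, against 10.3% and 14.6% of all genes. The members upregulated at 2-fold thus made up 13.5% of those measured, a share near that of all genes, whereas at 1.5-fold they made up 45.9%. The median log2 change was 0.46 over the members and 0.07 over all genes, with a range from -1.34 to 2.12 over the members. The 1.5-fold count depended on how the libraries were scaled. With TMM scaling, which sets every log2 change lower by 0.11, it was 11, against 17.1% of all genes. The 6 genes lost were Adsl, Hprt, Rrm1, Dut, Nme1 and Shmt2, all with log2 changes between 0.62 and 0.67 in the FPKM values, and Gart and Aprt then fell short of the 2-fold limit.

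**Figure D1:**
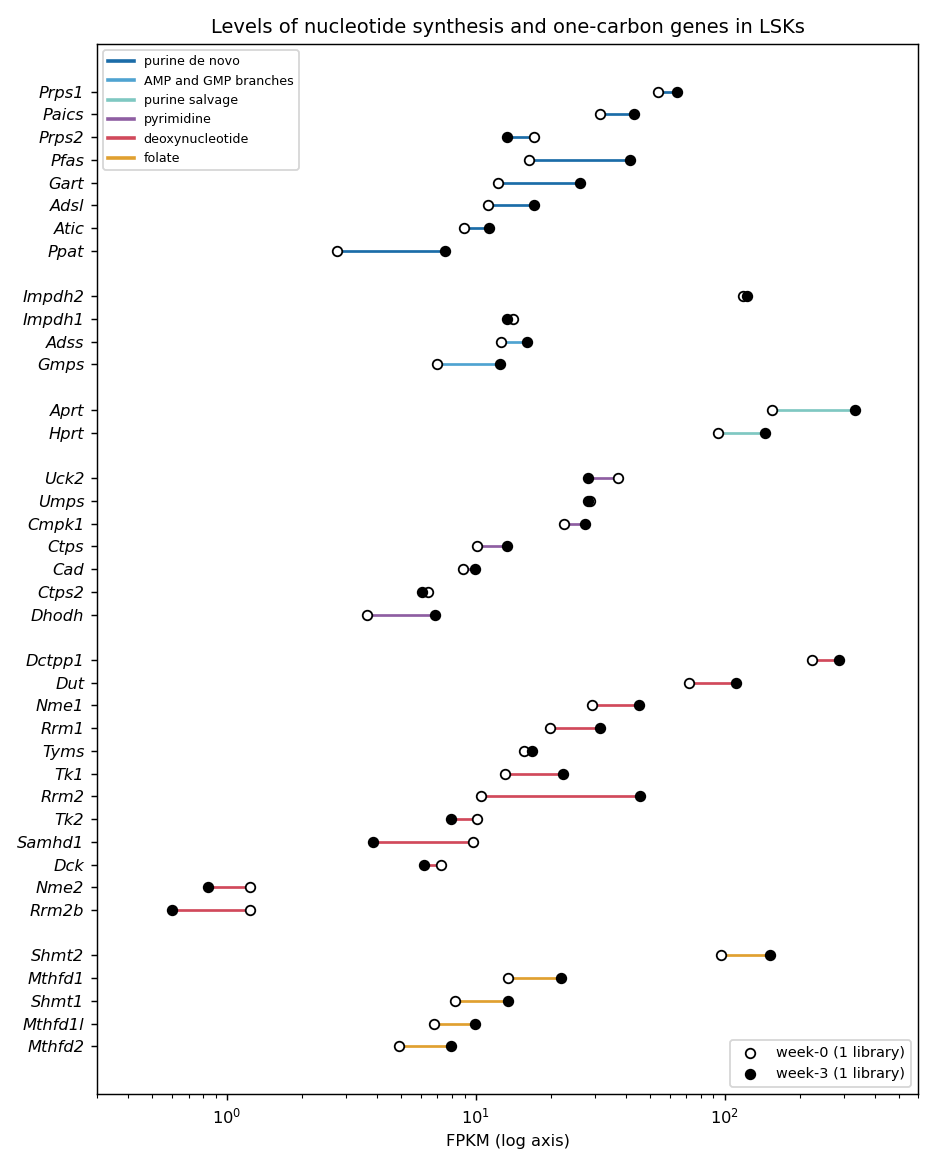
Levels of the 38 genes in the week-0 library (open circles) and the week-3 library (filled circles), in FPKM on a log axis, grouped by route and sorted by level at week-0. Levels ran from below 1.5 FPKM for Rrm2b and Nme2 to over 200 FPKM for Dctpp1 and, at week-3, Aprt, and the widest gap between both circles is that of Rrm2.

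The order of the levels was largely kept. The members with the highest levels at week-0 were Dctpp1 (224 FPKM), Aprt (155 FPKM) and Impdh2 (118 FPKM). At week-3 they were Aprt (334 FPKM), Dctpp1 (287 FPKM) and Shmt2 (151 FPKM). In this order Rrm2 moved from place 23 at week-0 to place 8 at week-3. Rrm2b and Nme2 were lowest in both libraries, and 36 of the 38 members had at least 1 FPKM in both. The median level was 12.8 FPKM at week-0 and 17.0 FPKM at week-3. Levels between genes rest on the gene lengths the authors used, and the length implied by reads and FPKM lay within 1% of the GENCODE M21 exon length for only 3 members, so a level should be read against the same gene in the other library first.

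Many markers of the sort and of other cell types also differed between the libraries. The genes of the surface proteins used for sorting were both less abundant at week-3: Kit had 16.9 FPKM at week-0 and 11.5 FPKM at week-3, and Ly6a, which encodes Sca-1, had 19.8 and 14.8 FPKM. All 9 stem and progenitor markers examined were lower, with a summed level of 316 FPKM at week-0 and 122 FPKM at week-3, Cd34 going from 60.9 to 39.9 FPKM. Ptprc, the pan-leukocyte gene CD45, had 4.13 and 4.56 FPKM. Of the granulocyte and monocyte markers 12 of 13 had enough reads, all 12 were higher and 9 were at least 2-fold higher, with a summed level of 2213 and 11187 FPKM, while Ly6g had 5 reads in each library. The 7 mast cell markers were all at least 2-fold higher, with a summed level of 120 and 3178 FPKM. B and plasma cell markers summed to 10251 and 680 FPKM, mostly from Igkc (8329 and 416 FPKM) and Ighm (1576 and 182 FPKM). Of the 7 with enough reads, 5 were downregulated. The intervals of Cd79b (23.5 and 26.4 FPKM) and Xbp1 (50.8 and 47.8 FPKM) held no change. Erythroid markers summed to 839 and 47.5 FPKM, and the 10 immediate-early genes, which respond within minutes to stimulation, to 11324 and 3267 FPKM. Of the 7 T and NK cell genes, Cd3e, Cd3d, Cd3g, Cd4 and Cd8a had at most 5 reads in either library, Nkg7 had 279 FPKM at week-0 and 422 FPKM at week-3, and Il2rb had 68 and 3 reads. A row for the BA transgene was not used here, and mouse Bcr (8.93 and 4.25 FPKM) and mouse Abl1 (3.00 and 1.79 FPKM) were lower at week-3, so these rows do not show the induction. The part of these differences in cell markers in the changes of the nucleotide genes was not tested.

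Among the 8 genes of de novo purine synthesis, 4 were upregulated, 3 of them at least 2-fold, and none was downregulated. Of all genes, 21.4% were upregulated, 10.3% at least 2-fold, and 21.6% were downregulated. Ppat encodes the amidotransferase of the committed step, which transfers the first nitrogen onto PRPP. It had 141 reads and 2.77 FPKM at week-0 and 235 reads and 7.54 FPKM at week-3, a log2 change of 1.45 (95% interval 1.14 to 1.76). Its reads thus grew in number although the week-3 library was the shallower one. The next enzymes of the route were also higher. Gart, a trifunctional enzyme with a folate-dependent transfer of a formyl group, had 12.2 and 26.1 FPKM (log2 1.09, 0.90 to 1.29). Pfas, which adds nitrogen from glutamine to the growing ring, had 16.3 and 41.7 FPKM (log2 1.35, 1.26 to 1.45). Among all genes the changes of Ppat, Pfas and Gart lay at percentiles 95.2, 94.4 and 91.2.

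The later steps of the purine ring changed by less. Adsl, the lyase that acts in the ring and again on the way to AMP, was upregulated from 11.2 to 17.2 FPKM, a ratio of 1.53. Paics (31.5 and 43.3 FPKM, ratio 1.37) and Atic (8.92 and 11.3 FPKM, ratio 1.27), which carry out the middle and the last steps, stayed under the limit with intervals above a ratio of 1. The PRPP synthetases differed in sign. Prps1 had 54.1 and 64.5 FPKM, with a log2 change of 0.26 (0.09 to 0.42), and Prps2 had 17.1 and 13.4 FPKM, with a log2 change of -0.35 (-0.59 to -0.11). The fold of Prps1 over Prps2 within a library was 3.17 at week-0 and 4.82 at week-3, a change of 1.52 times (1.24 to 1.86).

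Ppat and Paics lie head to head on chromosome 5 of GRCm38. Ppat is on the minus strand at chr5:76913249-76951578, Paics on the plus strand at chr5:76951307-76967509, and both rows share 272 bases. Reads in the shared stretch cannot be assigned to one gene unless strand was used in counting, which the sources used here do not give. Paics had far more reads than Ppat (1206 and 1013, beside 141 and 235), and the part of shared reads in either value was not tested.

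The branches from IMP to AMP and GMP were less changed, with a median log2 change of 0.20. Of these 4 genes 1 was upregulated and none was downregulated, beside 21.4% and 21.6% of all genes. The upregulated gene was Gmps, GMP synthetase, with 6.97 FPKM at week-0 and 12.5 FPKM at week-3, a ratio of 1.80. Adss, which commits IMP to AMP, had 12.6 and 16.1 FPKM, a ratio of 1.28. Impdh2, the main IMP dehydrogenase of dividing cells and the member with most reads (3902 and 2472), had 118 and 122 FPKM, and its log2 change of 0.05 had a narrow interval that held 0 (-0.02 to 0.12). Its change turned slightly negative under TMM and under median-of-ratios scaling. Impdh1 had 14.2 and 13.3 FPKM (log2 -0.09, -0.27 to 0.10). The ratio of Impdh2 to Impdh1 was 8.34 at week-0 and 9.19 at week-3, a change of 1.10 times with an interval from 0.96 to 1.26.

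Both purine salvage genes were upregulated, beside 21.4% of all genes. Aprt, which returns adenine to AMP, had 852 reads and 155 FPKM at week-0 and 1123 reads and 334 FPKM at week-3, a ratio of 2.16 (log2 1.11, 0.98 to 1.24). Hprt, which returns hypoxanthine and guanine, had 94.0 and 146 FPKM, a ratio of 1.55. Its log2 change was 0.52 with TMM and 0.54 with median-of-ratios scaling, under the 1.5-fold limit, which Aprt still met. Ppat, of de novo entry, was also set against Hprt, of salvage, each an enzyme that uses PRPP. The level of Ppat relative to Hprt was 0.0294 at week-0 and 0.0518 at week-3, which is 1.76 times higher (1.39 to 2.23). Per length, Hprt was thus far above Ppat in both libraries. This pair does not stand for the routes as a whole. The summed level of the salvage genes was 249 FPKM at week-0 and 479 FPKM at week-3 (ratio 1.93, median log2 change 0.87). That of the 8 de novo genes was 154 and 225 FPKM (ratio 1.46, median log2 change 0.54).

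Of the 7 pyrimidine genes, 1 was upregulated and none was downregulated, beside 21.4% and 21.6% of all genes, and their summed level was 117 FPKM at week-0 and 120 FPKM at week-3. The upregulated gene was Dhodh, the mitochondrial enzyme that makes orotate. It had 255 reads and 3.66 FPKM at week-0 and 291 reads and 6.84 FPKM at week-3, a log2 change of 0.90 (0.65 to 1.15). The enzymes on either side of it in the route had intervals that held no change. Cad, the large multifunctional protein of the first steps, had 8.89 and 9.88 FPKM (log2 0.15, -0.03 to 0.33), and Umps, which turns orotate into UMP, had 28.6 and 28.1 FPKM (log2 -0.03, -0.17 to 0.12).

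The remaining pyrimidine genes moved in both directions without reaching the limits. Ctps, a CTP synthase, had 10.1 and 13.3 FPKM (ratio 1.32), and its paralog Ctps2 had 6.42 and 6.09 FPKM (ratio 0.948). The ratio of Ctps to Ctps2 was 1.57 at week-0 and 2.18 at week-3, a change of 1.39 times (1.07 to 1.81). Cmpk1, the UMP-CMP kinase, had 22.6 and 27.4 FPKM (ratio 1.21). Uck2, which salvages uridine and cytidine, was lower at week-3, with 37.2 and 28.3 FPKM (log2 -0.39, -0.52 to -0.27).

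The genes of deoxynucleotide supply spread most widely. Of the 11 with enough reads, 5 were upregulated and 2 downregulated, beside 21.4% and 21.6% of all genes. These 11 held both the highest and the lowest change of all members. Rrm2 encodes the small subunit of ribonucleotide reductase whose abundance follows S phase. It had 247 reads and 10.4 FPKM at week-0 and 658 reads and 45.5 FPKM at week-3, a ratio of 4.36 (log2 2.12, 1.91 to 2.34), which lay at percentile 98.2 of all genes. Rrm1, the large subunit, was upregulated from 19.8 to 31.6 FPKM, a ratio of 1.59. Rrm2b, the small subunit induced by p53 that serves resting cells, had 57 reads and 1.23 FPKM at week-0 and 17 reads and 0.601 FPKM at week-3 (log2 -1.04, -1.91 to -0.23). Its interval was the widest of the called members, as its reads were few.

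The small subunits therefore shifted against each other. The level of Rrm2 relative to Rrm2b was 8.48 at week-0 and 75.7 at week-3, a change of 8.93 times (4.99 to 16.7), which was the largest of the 10 pairs examined. A ratio within a library does not depend on the scaling between libraries. Rrm2b was not called in the edgeR exact test with an assumed biological coefficient of variation (BCV) of 0.1, and neither gene was called with a BCV of 0.4, at which 50 of all genes were called higher and 199 lower.

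Samhd1, which breaks down deoxynucleoside triphosphates, was the member with the lowest change. It had 715 reads and 9.72 FPKM at week-0 and 173 reads and 3.85 FPKM at week-3, a ratio of 0.396 (log2 -1.34, -1.59 to -1.10). Its change lay at percentile 10.9 of all genes. Dut, which removes dUTP, was upregulated from 71.6 to 111 FPKM (ratio 1.55). Dctpp1, which clears dCTP and related nucleotides, had 224 and 287 FPKM (ratio 1.28) and did not reach the limit. Of these 3 enzymes, Samhd1 was lower and Dut and Dctpp1 were higher with intervals clear of no change.

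Among the nucleoside kinases, the cytosolic thymidine kinase Tk1 was upregulated, with 613 reads and 13.1 FPKM at week-0 and 641 reads and 22.3 FPKM at week-3 (log2 0.77, 0.61 to 0.94). The mitochondrial kinase Tk2 had 10.1 and 7.93 FPKM (log2 -0.35, -0.77 to 0.06). Tk1 exceeded Tk2 by 1.29 times at week-0 and 2.82 times at week-3, a change of 2.18 times (1.60 to 2.98). Dck, the kinase for deoxycytidine, had 7.23 and 6.21 FPKM, with an interval that held no change. Tyms, which makes thymidylate with folate as the methyl donor, had 15.5 and 16.8 FPKM (log2 0.11, -0.03 to 0.25). On 1030 and 681 reads, its counting interval held no change and spanned ratios from 0.98 to 1.19.

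Nme1, a nucleoside diphosphate kinase that turns diphosphates into triphosphates, was upregulated from 29.4 to 45.2 FPKM. Its neighbour Nme2 had 12 and 5 reads, and it was the member left out of the calls. Both values are uncertain, since the 2 genes are closely related copies 719 bases apart on the same strand and a read-through gene model that spans both was listed at 0 reads. How reads shared between them were counted was not given in the sources used here.

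**Figure D2:**
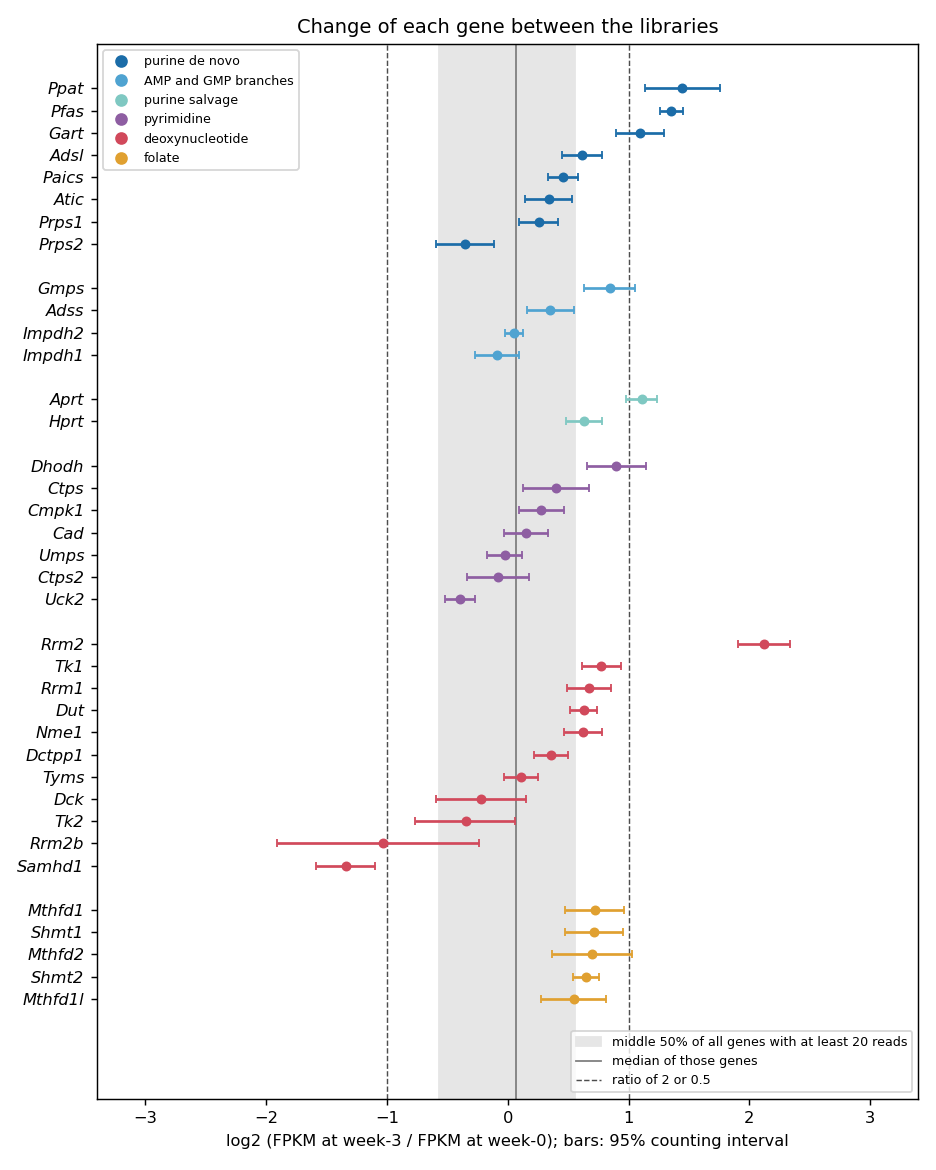
Log2 of the FPKM ratio of week-3 to week-0 for the 37 members with at least 20 reads, grouped by route, with bars for the 95% counting interval; the grey band spans the middle 50% of all 12192 genes and dashed lines mark ratios of 2 and 0.5. Rrm2 lies farthest to the right at 2.12, Samhd1 farthest to the left at -1.34, and the 5 folate genes lie close together.

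The folate genes were the most uniform. All 5 had intervals above no change, their log2 changes ran only from 0.55 to 0.72, and their intervals shared a common stretch from 0.54 to 0.76. They can therefore not be ranked among themselves. Shmt2, the mitochondrial serine hydroxymethyltransferase that releases a one-carbon unit from serine, was the most abundant, with 96.4 FPKM at week-0 and 151 FPKM at week-3 (ratio 1.57). Its cytosolic counterpart Shmt1 had 8.21 and 13.5 FPKM (ratio 1.64). The mitochondrial Mthfd2, which oxidises methylene-folate, had 4.88 and 7.94 FPKM (ratio 1.62), and the cytosolic Mthfd1 had 13.4 and 22.1 FPKM (ratio 1.65).

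Mthfd1l, the mitochondrial enzyme that releases formate, had 6.78 and 9.90 FPKM, and its ratio of 1.46 was just under the limit. The other 4 folate members were upregulated, beside 21.4% of all genes. No shift between the compartments was seen. The ratio of Shmt2 to Shmt1 was 11.7 at week-0 and 11.2 at week-3, a change of 0.957 times (0.799 to 1.15). That of Mthfd2 to Mthfd1 was 0.365 and 0.360, a change of 0.987 times (0.740 to 1.32), and that of Mthfd1l to Mthfd1 changed by 0.887 times (0.688 to 1.14). Shmt1 shares 184 bases with Smcr8 on the other strand, which had 141 and 51 reads, and Mthfd2 shares 2799 bases with a gene model on its own strand that had 25 and 0 reads.

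**Figure D3:**
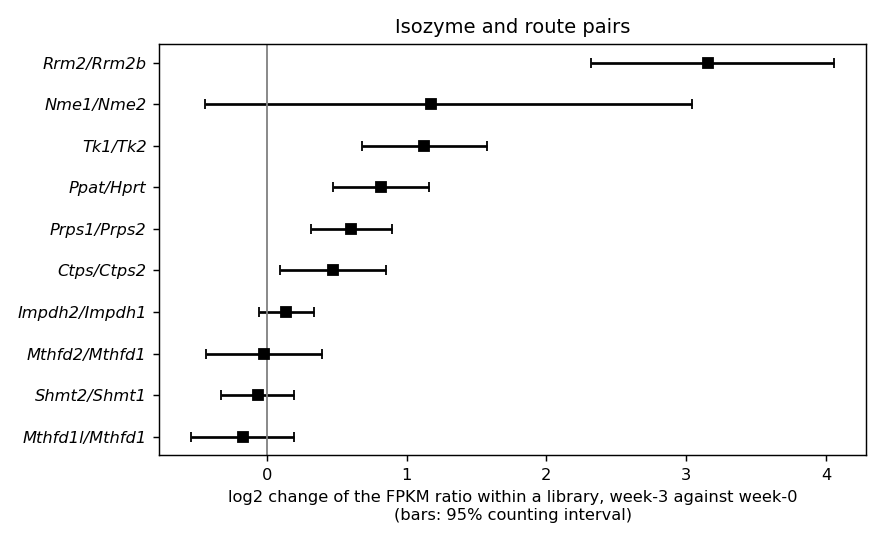
Change of the level ratio within 10 pairs of isozymes or routes, as log2 of the week-3 ratio over the week-0 ratio, with bars for the 95% counting interval. The intervals of 5 pairs lie above 0, with Rrm2 over Rrm2b at 3.16, and the intervals of the other 5 hold 0, among them the 3 folate pairs.

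Of the 10 pairs, 5 had counting intervals clear of no change and 5 had intervals that held no change. Those with intervals clear of no change were Rrm2 over Rrm2b, Tk1 over Tk2, Ppat over Hprt, Prps1 over Prps2 and Ctps over Ctps2. For Nme1 over Nme2, the reads of Nme2 were too few to show a change, with an interval from 0.735 to 8.22 times.

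By route, the medians of the log2 change were 0.70 for folate, 0.54 for all 14 purine genes, 0.36 for deoxynucleotide supply and 0.15 for pyrimidines, beside 0.07 for all genes. Within routes the log2 changes ran from -0.35 to 1.45 for purines, -0.39 to 0.90 for pyrimidines and -1.34 to 2.12 for deoxynucleotide supply, so these routes overlapped. The summed level of the purine genes was 555 FPKM at week-0 and 869 FPKM at week-3, of which Aprt, Hprt and Impdh2 made up most. Deoxynucleotide genes summed to 413 and 579 FPKM and folate genes to 130 and 205 FPKM. Under TMM scaling these medians were 0.59, 0.42, 0.25 and 0.04, in the same order.

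**Figure D4:**
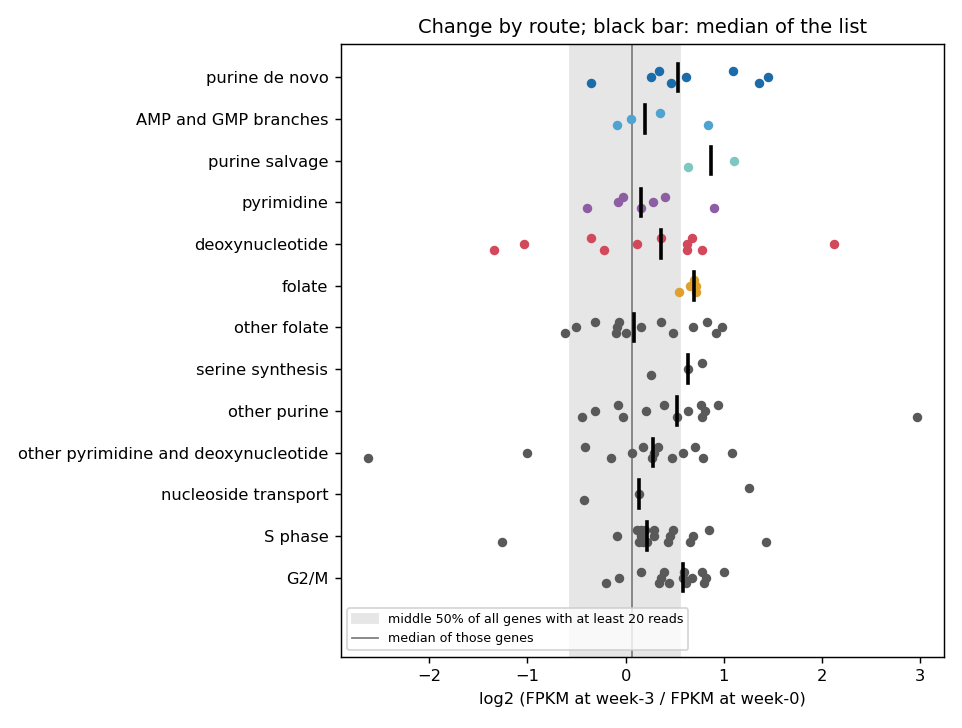
Log2 of the FPKM ratio of week-3 to week-0 for each gene with at least 20 reads, by list, with a black bar at the median of each list; coloured points are members, grey points are other genes, and the grey band is the middle 50% of all genes. The folate points cluster around their median of 0.70, the deoxynucleotide points span -1.34 to 2.12, and the other folate genes centre at 0.08.

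Other genes of the same pathways, which are not among the 38, were examined from a list of 52. Like the members, the list was chosen with earlier results of these data known. Of the 52 genes, 47 had enough reads. Of these, 15 were upregulated and 3 downregulated, beside 21.4% and 21.6% of all genes, with a median log2 change of 0.29. Of the 14 other folate genes with enough reads, 4 were upregulated and 1 was downregulated, beside 21.4% and 21.6% of all genes, with a median of 0.08. Upregulated were Mtr (ratio 1.98), methionine synthase, Fpgs (1.90), which retains folates in the cell, Mtfmt (1.77), which formylates the mitochondrial initiator tRNA, and Slc19a1 (1.61), the folate carrier.

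Upstream of the folate enzymes, 2 of the 3 serine synthesis genes were upregulated, beside 21.4% of all genes. Phgdh, the first enzyme of that route, had 193 FPKM at week-0 and 301 FPKM at week-3 (ratio 1.56), and Psph, the last, had 7.17 and 12.3 FPKM (ratio 1.72). Psat1, between them, had 14.6 and 17.5 FPKM (ratio 1.20).

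Among 13 other purine genes, 6 were upregulated and none was downregulated, beside 21.4% and 21.6% of all genes. The highest change was that of Gda, guanine deaminase, with 46 reads and 0.952 FPKM at week-0 and 220 reads and 7.44 FPKM at week-3 (ratio 7.82). Among the others were the kinases Adk (17.1 and 29.3 FPKM) and Guk1 (32.3 and 54.9 FPKM), Itpa (20.4 and 35.8 FPKM), which clears inosine triphosphate, and Pnp (33.5 and 51.9 FPKM), which splits purine nucleosides.

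Of 14 other pyrimidine and deoxynucleotide genes, 2 were upregulated and 2 downregulated, beside 21.4% and 21.6% of all genes. Nt5c, a deoxynucleotidase, had 30.3 and 64.2 FPKM (ratio 2.11), and Nme6 had 4.78 and 8.27 FPKM (ratio 1.73). Upp1, uridine phosphorylase, had 201 reads and 9.67 FPKM at week-0 and 20 reads and 1.57 FPKM at week-3 (ratio 0.163). Cmpk2, a mitochondrial nucleotide kinase known as an interferon-induced gene, had 4.03 and 2.01 FPKM (ratio 0.499). Of the nucleoside transporters, Slc29a2 was upregulated on 13 and 19 reads (ratio 2.39), while Slc29a1, far more abundant, had 13.3 and 9.91 FPKM (ratio 0.744).

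Genes of the cell cycle give the setting for the S phase enzymes among the members. Of 19 S phase genes with enough reads, 4 were upregulated and 1 was downregulated, beside 21.4% and 21.6% of all genes. The upregulated share was thus near that of all genes, and the median log2 change was 0.22. Of 15 G2/M genes, 7 were upregulated and none was downregulated, beside the same shares of all genes, with a median of 0.58. The changes of Rrm2 (2.12) and Tk1 (0.77) were above the S phase median and that of Tyms (0.11) was below it. The part of the cell cycle in these changes was not tested.

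Promoter sequences were available from RefSeq (GRCm38.p6) for 35 of the 38 genes, which have 41 annotated promoters between them, each from 250 bases before to 50 bases after the start. They were searched on both strands for exact letters of motifs bound by factors known to act on nucleotide genes. CACGTG, the E-box bound by Myc, was in 6 of the 41 (14.6%), beside 7.15% of all 32851 promoters, namely at Atic, Impdh2, Nme1, Paics and Tyms. The E2F letters TTTCCCGC or TTTGGCGC or TTTCGCGC were in 2 (4.88%, beside 1.84%), at Ppat and Prps2. CCAAT, bound by NF-Y, was in 13 (31.7%, beside 37.4%), and TGATGCAA, a composite C/EBP and ATF motif, was in none (beside 0.895%). Member promoters were richer in G and C, with a median of 61% against 52.7%, and the search took no account of this. Of the members upregulated at least 2-fold, Ppat, Gart, Aprt and Rrm2 had a promoter entry: Ppat had E2F letters and none of the 4 had the E-box. A match is a description of letters and not evidence of binding.

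The promoters of Ppat and Paics are shown because these neighbours share a start region yet changed by different amounts, those of Rrm2, Aprt and Gart because they were, beside Ppat, the members at least 2-fold higher that had a promoter entry, and that of Samhd1 because it had the lowest change. Each runs 5′ to 3′ on the strand of its gene. Capitals mark the motif letters found: GCGGGAAA, the reverse complement of TTTCCCGC, at -211 and -158 from the start of Ppat, CACGTG at -203 and CCAAT at -23 from that of Paics, and CCAAT at -33 from that of Gart and -50 from that of Rrm2. The promoters of Aprt and Samhd1 held none of these letters and have no capitals. The windows are chr5:76951529-76951828 on the minus strand for Ppat, chr5:76951052-76951351 on the plus strand for Paics, chr16:91646923-91647222 on the minus strand for Gart, chr12:24708004-24708303 on the plus strand for Rrm2, chr8:122576858-122577157 on the minus strand for Aprt and chr2:157135047-157135346 on the minus strand for Samhd1.
Ppat: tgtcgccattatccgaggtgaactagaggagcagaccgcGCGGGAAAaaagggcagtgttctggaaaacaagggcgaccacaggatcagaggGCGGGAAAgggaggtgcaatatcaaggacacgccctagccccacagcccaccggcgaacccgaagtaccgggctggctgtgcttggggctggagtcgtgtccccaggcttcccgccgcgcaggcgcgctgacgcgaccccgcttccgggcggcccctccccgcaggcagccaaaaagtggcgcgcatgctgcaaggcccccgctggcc
Paics: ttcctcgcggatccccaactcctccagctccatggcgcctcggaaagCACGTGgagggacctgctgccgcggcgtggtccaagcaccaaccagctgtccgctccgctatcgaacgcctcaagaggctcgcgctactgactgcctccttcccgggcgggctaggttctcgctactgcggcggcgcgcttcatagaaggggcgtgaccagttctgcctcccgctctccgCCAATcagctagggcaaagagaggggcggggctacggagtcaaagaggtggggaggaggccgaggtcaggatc
Gart: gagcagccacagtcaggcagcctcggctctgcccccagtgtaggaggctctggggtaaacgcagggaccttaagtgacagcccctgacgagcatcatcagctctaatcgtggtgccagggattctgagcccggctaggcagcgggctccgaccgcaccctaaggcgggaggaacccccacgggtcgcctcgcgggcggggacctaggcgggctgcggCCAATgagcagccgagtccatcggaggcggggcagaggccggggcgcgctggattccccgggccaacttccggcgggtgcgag
Rrm2: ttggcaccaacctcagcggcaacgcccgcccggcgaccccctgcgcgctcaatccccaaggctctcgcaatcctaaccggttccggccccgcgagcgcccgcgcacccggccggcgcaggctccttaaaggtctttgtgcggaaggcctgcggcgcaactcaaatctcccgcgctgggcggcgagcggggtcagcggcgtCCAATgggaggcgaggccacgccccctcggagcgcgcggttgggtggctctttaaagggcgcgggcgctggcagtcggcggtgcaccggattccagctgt
Aprt: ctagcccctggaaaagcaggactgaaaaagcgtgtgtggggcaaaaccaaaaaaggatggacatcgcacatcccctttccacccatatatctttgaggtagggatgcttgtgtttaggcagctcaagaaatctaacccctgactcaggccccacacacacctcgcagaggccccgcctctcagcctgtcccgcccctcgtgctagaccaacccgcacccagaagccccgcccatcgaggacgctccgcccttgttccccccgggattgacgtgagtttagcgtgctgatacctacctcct
Samhd1: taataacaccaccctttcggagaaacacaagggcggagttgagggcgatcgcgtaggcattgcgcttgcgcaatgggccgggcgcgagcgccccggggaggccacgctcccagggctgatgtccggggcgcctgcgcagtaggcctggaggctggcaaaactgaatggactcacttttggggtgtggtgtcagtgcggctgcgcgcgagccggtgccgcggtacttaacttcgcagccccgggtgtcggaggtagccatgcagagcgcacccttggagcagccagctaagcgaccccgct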

How the data were processed

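RNA of BM LSKs from 1 week-0 and 1 week-3 pool of 3 mice each was amplified to cDNA with a low-input SMARTer kit and sequenced in pairs on an Illumina HiSeq. The authors trimmed reads and aligned them to GRCm38/mm10 with TopHat2 (version 2.0.9 in the submitters' processing notes). The counting tool, annotation release and use of strand are not given in the sources used here. The deposited files hold raw read counts per gene and FPKM values normalized by the authors.

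The FPKM ratio was taken with an exact Clopper-Pearson 95% interval from the counts, whose library totals were 6356164 and 3886695. For pairs of genes, the interval is that of the conditional odds ratio. With 1 library per group no test was made. PCR reads without molecular identifiers are not independent molecules, so intervals cover the counting error of reads only and may be too narrow. Genes with at least 20 reads over both libraries were called by ratio and interval. Alternatives were TMM (edgeR 4.0.16) and median-of-ratios (DESeq2 1.42.0) scaling, other limits, and an edgeR exact test with an assumed BCV. Text names all members, other pathway genes called at 1.5-fold (some are not reported here), and sort markers. Psat1, Slc29a1, Ly6g, Igkc, Ighm, Cd79b, Xbp1 and the T and NK cell genes were named after their values were seen. Members and lists were chosen with earlier results of these data known. Gene strands came from GENCODE M21. Calculations used Python 3.11.15, scipy 1.17.1 and R 4.3.3.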

Additional observations from a re-analysis of the deposited data

How the results depend on the processing

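No member changed direction at a called value under any setting run. The count of members at least 2-fold higher was 5, and it stayed 5 without a limit on reads, with a limit of 50 reads, with median-of-ratios scaling, without immediate-early, immunoglobulin and mast cell genes in the total, with the fold alone and in the edgeR exact test at an assumed BCV of 0.1. Under these settings 8.51% to 10.6% of all genes were called higher. The member count was 3 with TMM scaling, 8.11% of those measured beside 8.22% of all genes. It was 17 with limits of 1.5 and 0.67, beside 21.4% of all genes. In the edgeR exact test at a BCV of 0.4 it was 0, beside 0.41%. The count at least 2-fold lower was 2, beside 14.6% of all genes. It was 1 in the edgeR exact test at a BCV of 0.1 and 0 at 0.4, beside 13.5% and 1.63%. The 17 members at least 1.5-fold higher (21.4% of all genes) became 11 with TMM (17.1%), 11 with median-of-ratios scaling (2195 of 12192 genes) and 13 without immediate-early, immunoglobulin and mast cell genes in the total (19.4%). These 1.5-fold counts under other settings were chosen after seeing the data. The 3 scalings lower every log2 change by 0.11, 0.09 and 0.05, in that order, which is their construction. The median of all members was then 0.35, 0.37 and 0.41, and that of the purine genes 0.42, 0.45 and 0.49. With TMM and median-of-ratios scaling the medians were 0.041 and 0.064 for pyrimidine, 0.25 and 0.27 for deoxynucleotide and 0.59 and 0.61 for folate genes. Impdh2 was the only member whose sign turned, under TMM and median-of-ratios scaling. No replicate could be left out, and no paired analysis was possible because each group has 1 library. Depth limits Rrm2b, with 17 reads at week-3, and Nme2.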

Other observations

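Wider pathway lists from KEGG, chosen after seeing the data, were examined without the 38 genes. Purine metabolism then had 109 genes with enough reads, of which 34 were upregulated and 15 downregulated at the limits of 1.5 and 0.67, with a median log2 change of 0.20. Pyrimidine metabolism had 69 such genes, with 19 upregulated, 8 downregulated and a median of 0.12. The one-carbon pool by folate had 8, with 2 upregulated, 1 downregulated and a median of 0.03. Of all genes, 21.4% were upregulated and 21.6% downregulated at these limits, with a median of 0.07.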
